A study of Mus musculus with 11 samples.

Results

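The genes examined here encode the subunits of AP-1 (activator protein 1): Fos, Fosb, Fosl1 and Fosl2 of the Fos family, Jun, Junb and Jund of the Jun family, and Atf3, Batf and Batf3, which belong to related families. They were chosen because their products recognise the motif most enriched in the distal regions of the list analysed here. Every accessible region that overlapped a window from 50 kb upstream of a gene to 20 kb past its end was taken as a member, with gene coordinates from GENCODE vM21 on mm10. The 10 windows held 124 of the 94963 regions in the list, and 0 regions fell in more than 1 window. Within the windows, regions were taken by position alone, without regard to their level or sequence. The choice of the genes itself rests on a sequence result of the whole list, of which these regions are a part.

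Chromatin accessibility was profiled by ATAC-seq, a method in which the Tn5 transposase cuts open chromatin, in 11 cultures of the mouse line MPC2. MPC2 is a single conditionally immortalised clone of mesenchymal stem cells (MSCs) that is differentiated towards osteocytes in osteogenic medium. Undifferentiated MSCs were sampled after vehicle (n = 3) or FG-4592 (n = 3), and osteocytes, differentiated for 3 weeks, after vehicle (n = 2) or FG-4592 (n = 3). The drug, also named Roxadustat, blocks the prolyl hydroxylases that mark HIF for degradation and so mimics hypoxia; it was used at 50 uM for 48 hours. All groups therefore share the immortalised line.

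The list pooled all cultures and gave 1 value for each region, read here as the average log2 CPM (log2 of cuts scaled to library size) and called the level. It gave no value for a culture. From this list no group could be compared with another, the depth of each culture was unknown, no error between replicates is known and no test was run. The study's own comparisons between groups were not used here. Each level below is 1 pooled value, and 95% Wilson intervals for shares cover counting error only. Of the genes that mark early stages, 5 of 7 (Runx2, Sp7, Alpl, Col1a1 and Cd44) had a region at their start, and Thy1 and Ly6a had none. Of the osteocyte markers 2 of 6 (Dmp1 and Fgf23) had one, while Phex, Mepe, Sost and Pdpn had none. Over all protein-coding genes the share was 64.1%. Since the stages were pooled, these starts cannot be assigned to MSCs or osteocytes.

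AP-1 is a pair of basic leucine zipper proteins that grip DNA side by side. Jun proteins pair with each other or with Fos proteins, which cannot pair among themselves, and the pairs bind TGACTCA, whose other strand reads TGAGTCA. Atf3 and the small Batf proteins, which lack a transactivation domain of their own, pair with Jun proteins as well. Fos, Fosb, Jun, Junb and Atf3 are immediate-early genes that growth factors, stress and mechanical load induce within minutes through MAP kinases. In bone, Fos-deficient animals lack osteoclasts, and Fosl1 and Fosb variants raise bone formation when overexpressed. The motif TGACTCA will be called an AP-1 site wherever its letters occur on either strand; a match describes sequence and does not show binding.

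The sequences that the description of these loci turns on are the motifs within regions at the members' own starts. They are written 5′ to 3′ with 10 flanking bases from GRCm38, the assembly of mm10, with the motif in capitals. AP-1 sites occurred in regions at the starts of Fosl1, Fosl2 and Atf3, as follows.
Fosl1 start (chr19:5447887-5447913, minus strand): gctgcggttcTGACTCActcgcgcctc
Fosl1 intron (chr19:5448845-5448871, minus strand): gcacccagggTGACTCAgcctcagtga
Fosl2 start (chr5:32135844-32135870, plus strand): gccattgtagTGACTCAtctcgggcag
Atf3 inner start (chr1:191182775-191182801, minus strand): tgcgcggaggTGACTCAcactctggcg
Atf3 outer start (chr1:191216295-191216321, minus strand): gcccagcggcTGACTCAtctgacatta

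CArG boxes, the element CC(A/T)6GG that serum response factor (Srf) binds, lay in regions at the starts of Fos, Fosb and Junb. The cyclic AMP response element (CRE) TGACGTCA lay in the region at the start of Jund, and TGACATCA, an AP-1-like variant of it known from the Jun promoter, in a region at the start of Fos. They are shown because each of these starts lacked TGACTCA.
Fos CArG box (chr12:85473571-85473600, plus strand): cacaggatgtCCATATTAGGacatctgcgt
Fosb CArG box (chr7:19310298-19310327, minus strand): tggccgagctCCTTATATGGctaattgcgt
Junb upstream CArG box (chr8:84980149-84980178, minus strand): cttcctgtgcCCTAATATGGgtgctgggga
Junb downstream CArG box (chr8:84976614-84976643, minus strand): gaagctctgcCCATATATGGgcctattcag
Jund CRE (chr8:70698725-70698752, plus strand): cccacccccaTGACGTCAacccacaatg
Fos variant (chr12:85472156-85472183, minus strand): tcccgccgacTGACATCAccctcgggtt

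The Jun promoter is given at greater length because its region had the highest level of all 124. The 250 bases before the RefSeq start of Jun (chr4:95052223-95052472, minus strand, GRCm38.p6) hold TGACATCA in capitals, 41 bp upstream of the start, and no TGACTCA.
Jun promoter: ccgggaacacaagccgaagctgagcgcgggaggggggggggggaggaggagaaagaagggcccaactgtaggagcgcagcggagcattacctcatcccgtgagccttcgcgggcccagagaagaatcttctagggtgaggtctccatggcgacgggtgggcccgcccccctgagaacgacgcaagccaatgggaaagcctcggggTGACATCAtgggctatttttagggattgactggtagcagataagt
Of the 9 members with a RefSeq promoter (250 bases before to 50 after the start), only Jun held one of TGACTCA, TGACGTCA, TGACATCA (each on either strand) and the CArG box. In 32851 RefSeq promoters of that length, AP-1 sites occurred in 5.2%, the CRE in 1.79%, the TGACATCA variant in 3.62% and CArG boxes in 1.63%. The RefSeq windows of Jun, Fos, Fosb, Fosl2, Junb, Atf3 and Batf3 were covered by accessible regions to 100%, and those of Jund and Batf to 0%. For Jund the RefSeq start lies upstream of the GENCODE start, at which a region was found.

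The AP-1 subunit loci were dense in accessible regions. The number of regions per window ran from 6 at Batf to 17 at Atf3, with a median of 12.5, against a median of 6 over the same windows of 21938 protein-coding genes. Per 100 kb of window the median was 15.4 regions for the members and 6.13 for coding genes, and 10 of 10 members lay above the latter. Other immediate-early genes were as dense, with a median of 15.3 per 100 kb, and known AP-1 target genes had 12.2, while the other AP-1 superfamily genes had 8.43 and the upstream kinases and factors 8.12. Jund was the densest locus with 22.3 regions per 100 kb, more than 99.6% of coding genes, and Fosb (20.7) and Fosl1 (20.4) came next. Batf was the sparsest with 6.49 per 100 kb, more than 52.0% of coding genes, preceded by Fosl2 with 8.69.

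Not all of these regions lay closest to a member. Of the 124 regions, 69 had a member's coding start as the nearest, 12 of 12 at Fos, 8 of 8 at Fosl2 and 10 of 10 at Jun. At Fosl1 and Jund 3 of 16 did, since Drap1, Ccdc85b, Fibp, Efemp2, Lsm4 and Pgpep1 start in these windows. Regions within 1000 bp of any annotated transcript start (promoter regions) made up 52 of the 124, or 41.9%, against 22.7% of the whole list. Of these, 15 lay at the members' own starts and 37 at starts of other genes or noncoding transcripts. The other 72, called distal, comprised 11 exonic, 17 intronic and 44 intergenic regions, and the intronic share was 13.7% against 37.3% in the list. Fos, Jun, Junb and Jund are short genes, of 3384, 3189, 4235 and 1668 bp.

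**Figure D1:**
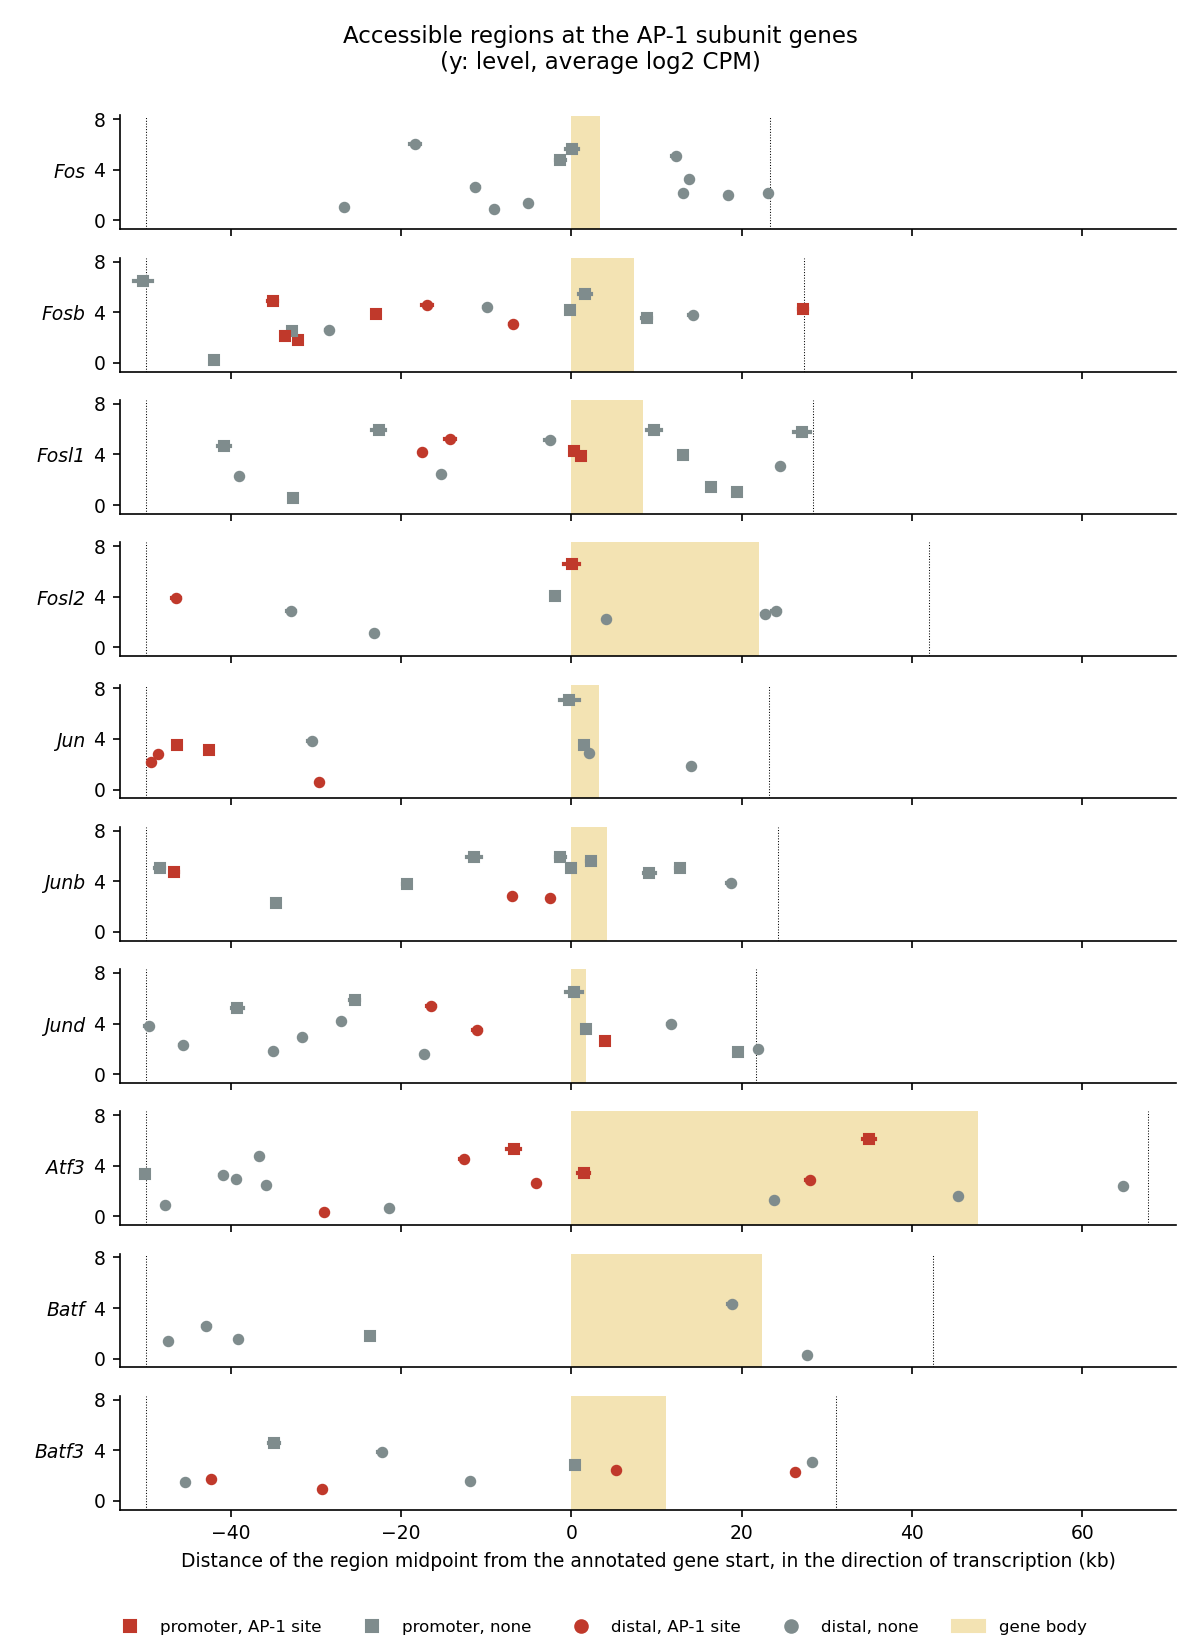
Accessible regions in the window of each AP-1 subunit gene, with the distance of the region's midpoint from the gene start on the x axis (kb, in the direction of transcription) and its level on the y axis of each lane (average log2 CPM, from 0 to 8). Bars give region widths, red marks an AP-1 site, squares are promoter regions, circles distal regions and dotted lines the window ends; Fos and Batf have no red region, and red regions at Jun lie only far upstream.

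Most members had an open start. A region lay within 1000 bp of a transcript start of 9 of the 10 members, against 64.1% of coding genes, and Batf had none. The highest region at the own start had a median level of 5.89 over these 9 genes, against 5.03 over the coding genes that had one, and 7 of the 9 exceeded that value. Percentages of coding genes given for start levels below are among those with a region at the start. In order, the levels were 7.06 for Jun, 6.58 for Fosl2, 6.48 for Jund, 6.10 for Atf3, 5.89 for Junb, 5.66 for Fos, 5.41 for Fosb, 4.30 for Fosl1 and 2.85 for Batf3. Without replicate values it cannot be said which neighbours in this order differ. On the scale of CPM per kb of region the order was not the same: the Jun region had 61.0 and the 3 regions at the Junb starts 65.5, 61.6 and 58.9, while the Batf3 region had 9.95 and the outer Atf3 region 8.83.

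**Figure D2:**
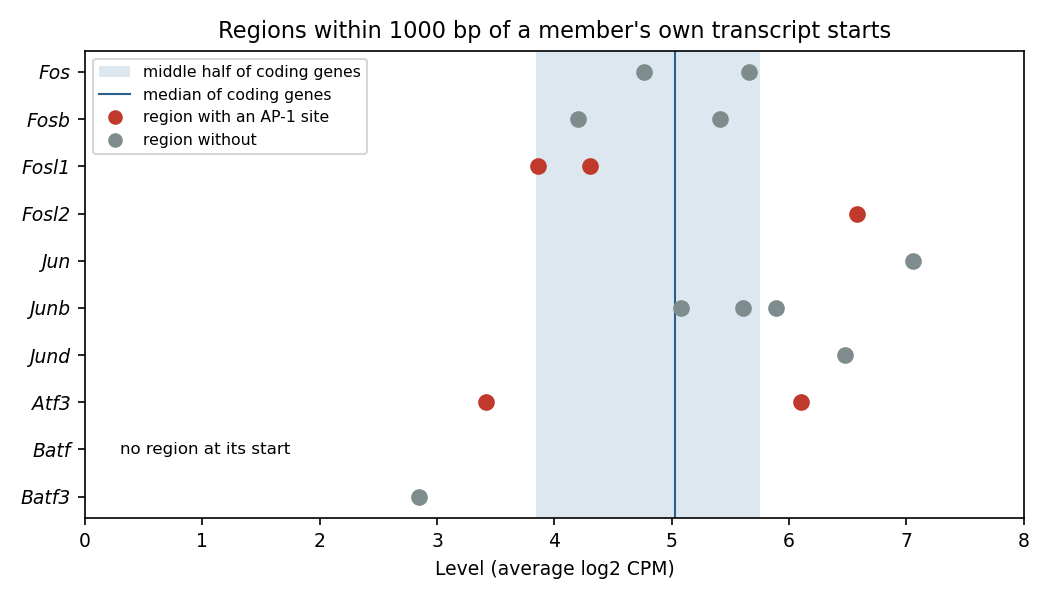
Level (x axis, average log2 CPM) of each of the 15 regions within 1000 bp of a transcript start of an AP-1 subunit gene (y axis), red where the region holds an AP-1 site. The band spans the quartiles, 3.84 and 5.75, and the line the median, 5.03, of the highest start region of coding genes; the highest regions of Jun, Fosl2, Jund, Atf3 and Junb lie above the band, and the Batf3 region and the outer Atf3 region below it.

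Fos encodes the prototype of the Fos family, a protein that needs a Jun partner to bind DNA. The region over its start (chr12:85473234-85474676, 1443 bp) covered the 5′ UTR and the first coding bases and had a level of 5.66. A neighbouring region at chr12:85472036-85473098 had a level of 4.76. The highest level at the locus was at neither: an intergenic region 18.4 kb upstream, chr12:85454893-85456100 of 1208 bp, reached 6.08. The 12 Fos regions had levels down to 0.93, and 9 of 12 exceeded the median of list regions of similar width.

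The Fos locus held no AP-1 site in any of its 12 regions, though its start region held 1 match with any base allowed in the middle of the motif. In the whole list 22.1% of regions held an AP-1 site, and most loci have few regions, so their own counts were not tested against that share. It held instead 3 regions with a CArG box, among them the start region, whose box CCATATTAGG lay 304 bp upstream of the start. That is the position and sequence of the serum response element through which Srf and the ternary complex factors induce Fos. The remaining CArG boxes of the locus lay 10.9 kb upstream and 12.2 kb downstream, in intergenic regions with levels of 2.64 and 5.06. The variant TGACATCA occurred 1720 bp upstream, and once more within the highest region of the locus. That region was the highest distal one of all 72.

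Fosb encodes a Fos protein with a short splice form, deltaFosB, and had 16 regions with levels from 0.23 to 6.44. Its start region at chr7:19309947-19310561 had a level of 4.20 and held a CArG box 261 bp upstream of the start. A second region within 1000 bp of annotated Fosb transcripts, chr7:19307711-19309095, reached 5.41. The highest level of the window, 6.44, belonged to chr7:19359313-19361383 at the shared start of Cd3eap and Ppp1r13l, at the upstream end of the window.

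AP-1 sites at Fosb lay outside the gene. They occurred in 7 of 16 regions, 5 of which were promoter regions of other genes: Rtn2, Ercc1 and the noncoding genes Gm44698 and D830036C21Rik, the last with 2. The intergenic region 6.88 kb upstream (chr7:19316657-19317204, level 3.05) held 2 sites and a TGACATCA variant, and the intronic region at chr7:19326401-19327546 (level 4.58) held 1 site. Both are given because they are the only distal Fosb regions with a site.
Fosb, nearer site (chr7:19316771-19316797, plus strand): accctgtcccTGACTCAggctggagag
Fosb, next site (chr7:19316990-19317016, plus strand): ttctctaaggTGACTCAgatgccgaga
Fosb, intronic site (chr7:19327338-19327364, plus strand): tccccgctgaTGACTCAttacgtcatc

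Fosl1 encodes Fra-1, a Fos protein without the transactivation domain of Fos, and is itself a well-known AP-1 target. Taking the highest region at each gene's starts, it was the lowest of the Fos family: chr19:5447492-5448256 had 4.30, above 31.8% of coding genes. Both regions at its start held an AP-1 site, 353 bp and 1311 bp downstream of the gene's first base, the latter in an intron (chr19:5448396-5449026, level 3.86). The highest level at the locus, 5.93, was at the start of the neighbouring Ccdc85b (chr19:5456474-5458076).

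Upstream of Fosl1 lay 2 more regions with AP-1 sites, at chr19:5429736-5430200 (level 4.21) and chr19:5432688-5433907 (level 5.18, 1220 bp). The latter, centred 14.2 kb upstream, held 2 sites 22 bp apart on the same strand, shown because no other pair at these loci lay closer. Its level was the highest but one among the 20 distal regions with a site.
Fosl1 upstream pair (chr19:5433531-5433579, plus strand): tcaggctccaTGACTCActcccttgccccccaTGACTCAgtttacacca

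Fosl2 encodes Fra-2, the Fos protein with a role in chondrocytes and osteoblasts. Its start region, chr5:32134961-32136689 of 1729 bp, had a level of 6.58, above 95.1% of coding genes. An AP-1 site lay 56 bp downstream of the GENCODE start, within the 5′ UTR of that annotation. The RefSeq start lies further downstream, and its promoter, chr5:32136222-32136521, begins past this site. The locus had 8 regions, more than 58.6% of coding genes, and 1 other held a site: the intergenic region chr5:32088910-32089893 (level 3.89), 46.4 kb upstream. The single intronic region of this 22042-bp gene had a level of 2.22.

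Jun encodes the strongest transactivator of the Jun family. Its start region, chr4:95051364-95053553, was the widest of the 124 at 2190 bp and had the highest level, 7.06, above 98.8% of coding genes. It spans the 5′ UTR of Jun and an exon of Junos, an antisense noncoding gene that starts beside it. The TGACATCA variant 41 bp upstream of the start is the element through which Jun is known to regulate its own promoter, and no TGACTCA was found in this region.

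The AP-1 sites found at Jun were far from the gene. Of the 6 regions more than 20 kb upstream, all within Junos, 5 held a site, and of the 4 regions nearer to or past the gene 0 did, beside 22.1% in the list; with 4 regions, a count of 0 says little. The sites lay between 29.6 and 49.4 kb upstream. Their regions had levels of 0.63, 3.11, 3.50, 2.79 and 2.19, of which all but the first exceeded the list's median of 2.12, and the site-free one among the 6 had the highest level of that group, 3.81. The 5 sites are shown in order from the gene.
Jun upstream 1 (chr4:95081843-95081869, plus strand): gaactcagggTGACTCAgcttcacatg
Jun upstream 2 (chr4:95094778-95094804, plus strand): caccctttgtTGACTCAccctccaccc
Jun upstream 3 (chr4:95098422-95098448, minus strand): catccgaacgTGACTCAccttctgaaa
Jun upstream 4 (chr4:95100899-95100925, plus strand): tttcaactgcTGACTCAtcttgtaaat
Jun upstream 5 (chr4:95101613-95101639, minus strand): aaattggccaTGACTCAtctagagtat

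Junb encodes a Jun protein that activates weakly and often restrains Jun. It had 3 regions at its starts, more than any other member: chr8:84979502-84980509 with a level of 5.89, chr8:84976094-84976838 with 5.61 and chr8:84978461-84979010 with 5.08. None of these held an AP-1 site. A CArG box lay 1445 bp upstream of the start in the first and 2089 bp downstream, within the gene, in the second. The highest level of the window, 5.91 at the start of Hook2 (chr8:84989328-84990932), was close to that of Junb itself, and this region held a CArG box as well.

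The region with the most AP-1 sites was also at Junb. The intergenic region chr8:84985560-84985901, 342 bp wide with a level of 2.87 and centred 7.01 kb upstream of the start, held 3 sites spaced by 30 and 64 bp, and it was the only 1 of the 124 with more than 2. In the whole list 0.451% of regions held 3 or more. The other Junb regions with a site were chr8:84981122-84981343 (level 2.66), 2.51 kb upstream, and chr8:85024957-85025727 (level 4.71) at the start of Asna1.
Junb upstream cluster (chr8:84985647-84985767, minus strand): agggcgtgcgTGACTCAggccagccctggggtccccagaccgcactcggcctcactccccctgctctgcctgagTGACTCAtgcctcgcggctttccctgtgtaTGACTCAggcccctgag

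Jund encodes the Jun protein that most cells express without induction. Its start region, chr8:70698311-70700229 of 1919 bp, covered the whole gene apart from its end and had a level of 6.48, above 93.6% of coding genes. It held a CRE 210 bp upstream of the start and no AP-1 site. Of its 16 regions, 3 held a site, among them chr8:70681977-70682955, 16.5 kb upstream, whose level of 5.35 was the highest among distal regions with a site. The others were chr8:70687382-70688376 (level 3.51) and chr8:70702828-70703065 (level 2.59) near a start of Iqcn.
Jund upstream 1 (chr8:70688211-70688237, plus strand): acccatgtatTGACTCAtcacagaatg
Jund upstream 2 (chr8:70682927-70682953, minus strand): ctgtctggggTGACTCAccctccctca
Jund upstream 3 (chr8:70682321-70682347, plus strand): caccaggcggTGACTCAcgccctccgt

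Atf3 encodes a stress-induced factor that represses as a homodimer and can activate with Jun partners. It is transcribed from 2 separate starts. The region at the inner start, chr1:191182345-191183768, had a level of 6.10, above 85.4% of coding genes, and the region near the outer start, chr1:191215989-191217200, had 3.42. Both held an AP-1 site, 320 bp and 1731 bp downstream of the nearest own start. Atf3 had as many regions with a site as Fosb, 7 of 17, spread from the inner start to 29.0 kb upstream of the outer one.

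Among the remaining Atf3 regions with a site, the highest was chr1:191224014-191225615 (level 5.35) at the start of the noncoding gene D730003I15Rik. The intergenic chr1:191230238-191231078 had 4.53, the intronic chr1:191189633-191190456 had 2.87, and the small regions chr1:191222047-191222367 and chr1:191246921-191247151 had 2.63 and 0.37.
Atf3 upstream, noncoding start (chr1:191224433-191224459, plus strand): gcggggctgaTGACTCAcgcagtcggg
Atf3 upstream, intergenic (chr1:191230755-191230781, minus strand): tgagtttgggTGACTCAggatggtcac
Atf3 intron (chr1:191190038-191190064, minus strand): ctcaccggagTGACTCAgtccaccctc

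Batf and Batf3 encode small partners of Jun proteins that are best known from lymphocytes and dendritic cells. Batf had no region at its start, 6 regions in all, and 0 AP-1 sites. Its highest level was 4.33 in an intronic region, chr12:85705095-85706041, 18.9 kb downstream of the start, and the others had levels between 0.28 and 2.61. Batf3 had the weakest start of the members with one, chr1:191097912-191098636 with a level of 2.85, above 15.9% of coding genes, and that region lay below the median of list regions of its width. The highest level in its window, 4.60, was at the shared start of Nsl1 and Tatdn3 (chr1:191062363-191063467).

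Batf3 had AP-1 sites in 4 of its 10 regions, beside the list's share of 22.1%. The intronic region chr1:191102949-191103291 (343 bp, level 2.44) held 2, and chr1:191123846-191124316 (level 2.27), chr1:191055330-191055757 (level 1.76) and chr1:191068497-191068712 (level 0.97) held 1 each. Batf3 and Atf3 lie near each other on chromosome 1, as Fos and Batf do on chromosome 12, so not all of these loci are far apart in the genome.
Batf3 intron 1 (chr1:191103048-191103074, minus strand): gagagtcctcTGACTCActtgctgtct
Batf3 intron 2 (chr1:191103139-191103165, plus strand): agagcatctgTGACTCAgctccccagg

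Over all members, AP-1 sites were somewhat more frequent than in the list, and whether the margin exceeded counting error depended on the window and the class of region. A site was found in 35 of 124 regions, 28.2% (21.1 to 36.7%), against 22.1% of all regions, and 41 sites were counted in all. Among distal regions it was 20 of 72, 27.8% (18.8 to 39.0%), against 23.7%, and both intervals include the list's share. With a window from 20 kb upstream to the gene end the share over all regions was 18 of 47, 38.3% (25.8 to 52.6%), and with 100 kb upstream 55 of 182, 30.2% (24.0 to 37.2%), and neither interval includes the list's 22.1%. For regions whose nearest coding start is a member it was 22 of 69, 31.9% (22.1 to 43.6%), and the lower limit and the list's share were both 22.1% as rounded. In the remaining alternatives over all regions the interval included the list's share, and with regions at least 500 bp wide the shares were 30.0% (20.5 to 41.5%) and 28.1%. Among distal regions of that width the order turned, with 9 of 32, 28.1% (15.6 to 45.4%), against 33.5%. Promoter regions had 15 of 52, 28.8% (18.3 to 42.3%), against 16.5%, which lies below the interval. With starts of protein-coding genes alone it was 9 of 37, 24.3% (13.4 to 40.1%), against 15.2%, which the interval includes. Of these promoter regions, 5 of 15 at the members' own starts and 10 of 37 at other starts held a site. By gene, 8 of 10 members had a site in at least 1 region, against 59.7% of coding genes. In a region at their own start 3 of 10 had one, against 12.2% of coding genes, a share that includes genes without such a region. A region at the start was found for 9 of the 10 members and for 14058 of 21938 coding genes, and 2670 of these 14058 held a site there. The members' windows also held more regions in which a site could occur, 12.5 against 6 at the median. Fos and Batf were the loci without any.

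The families had overlapping intervals for this share. Regions with a site were 13 of 52 at the Fos family genes, 25.0% (15.2 to 38.2%), 11 of 39 at the Jun family genes, 28.2% (16.5 to 43.8%), and 11 of 33 at Atf3, Batf and Batf3, 33.3% (19.8 to 50.4%). By distance from the own starts, 3 of 6 distal regions within 5 kb, 9 of 30 between 5 and 20 kb and 8 of 36 beyond 20 kb held a site, beside 23.7% of all distal regions in the list. With 6 regions the first of these counts says little, and a trend with distance was not tested.

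Member regions were wider than the list's, 572 against 460 bp at the median, which gives more room for a motif. Per 10 kb of covered sequence the members had 4.72 sites against 4.42, or 3.14 against 2.16 in promoter regions and 6.64 against 5.58 in distal ones. In the central 200 bp the share was 15.3% against 12.1%. Flanking windows as wide as the member regions, placed 10 kb away on both sides and free of regions, held a site in 25 of 187 cases, 13.4% (9.22 to 19.0%), and such windows around all regions in 8.91%. For distal regions alone the flanks held a site in 11 of 114 cases, 9.65% (5.47 to 16.5%), against 7.64% in the list, which the interval includes. The regions at these loci held a site more often than their own flanks in both cases.

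**Figure D3:**
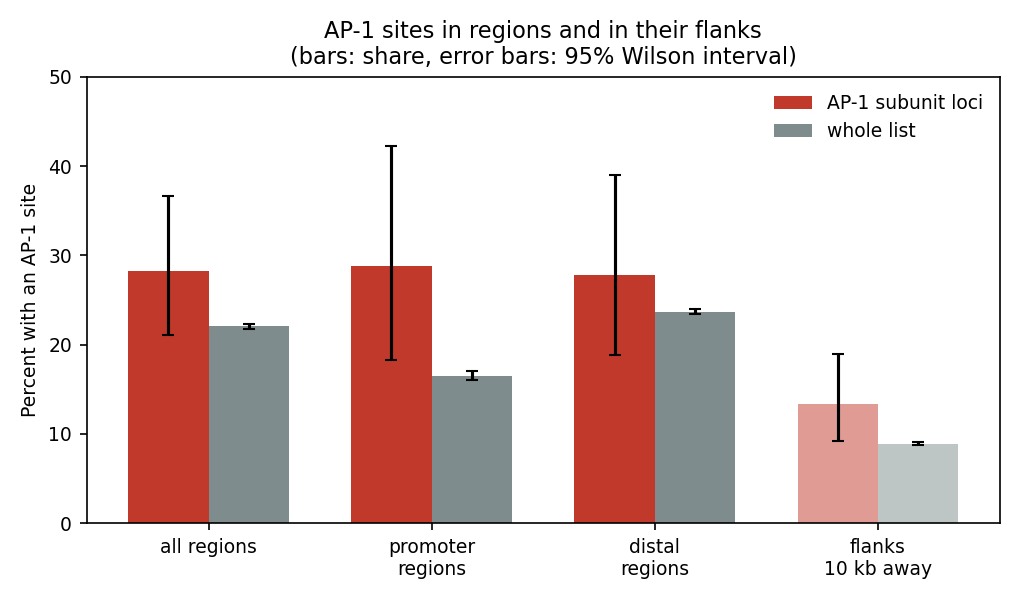
Percent of regions with an AP-1 site (y axis) at the AP-1 subunit loci (red) and in the whole list (grey), for all, promoter and distal regions, and for windows of equal width 10 kb away (pale bars); error bars are 95% Wilson intervals. The red interval lies above the grey bar for promoter regions (28.8% against 16.5%) and for flanks (13.4% against 8.91%), and includes it for all and for distal regions.

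The position and flanks of the sites were close to those in the list. The median distance of the 41 sites from the centre of their region was 91.5 bp, against 96 bp in the list, and 53.7% against 51.5% lay within 100 bp of it. A purine before and a pyrimidine after TGACTCA were found at 12 of 41 sites, 29.3%, against 31.1%. A single site was the rule: 30 regions held 1 site, 4 held 2 and 1 held 3.

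Other motifs were counted in the same way. CArG boxes occurred in 8 of 124 regions, 6.45% (3.31 to 12.2%), against 2.89% of the list, and lay at 4 genes, Fos, Fosb, Junb and Batf3; at Fos, Fosb and Junb they were in 4 of the 15 regions at own starts, and over the members' promoter regions the share was 5 of 52, 9.62% (4.18 to 20.6%), against 3.38% of the list's. TGACATCA or its other strand TGATGTCA occurred in 7 regions, 5.65% (2.76 to 11.2%), against 3.27%, at 5 genes. The CRE occurred in 2, 1.61% (0.443 to 5.69%), against 1.1%. The core of the hypoxia response element, ACGTG or GCGTG on either strand, to which HIF binds, occurred in 75 regions, 60.5% (51.7 to 68.6%), against 46.2%. Within promoter regions the share was 84.6% (72.5 to 92.0%) against 72.3%, with 14 of 15 at own starts, and within distal regions 43.1% (32.3 to 54.6%) against 38.6%. Promoter regions made up 41.9% of the members against 22.7% of the list, and the part of this in the difference over all regions was not tested. This core contains CpG, and the median GC content of the member regions was 54.2% against 49.8% in the list; the part of GC content in the count was not tested.

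Accessibility at these loci was high for the width of the regions. The median level was 3.11 against 2.12 in the list, 4.28 against 3.89 in promoter regions and 2.62 against 1.89 in distal regions. Levels rise with width, and in bins of equal width 94 of 124 member regions, 75.8%, lay above the list's bin median, against 50.0% of the list. Within promoter regions it was 82.7% against 62.6%, and within distal regions 70.8% against 46.3%. Of the 15 regions at own starts 12 did, and of the 33 regions at Atf3, Batf and Batf3 22 did. In CPM per kb the median was 17.7 against 9.52.

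**Figure D4:**
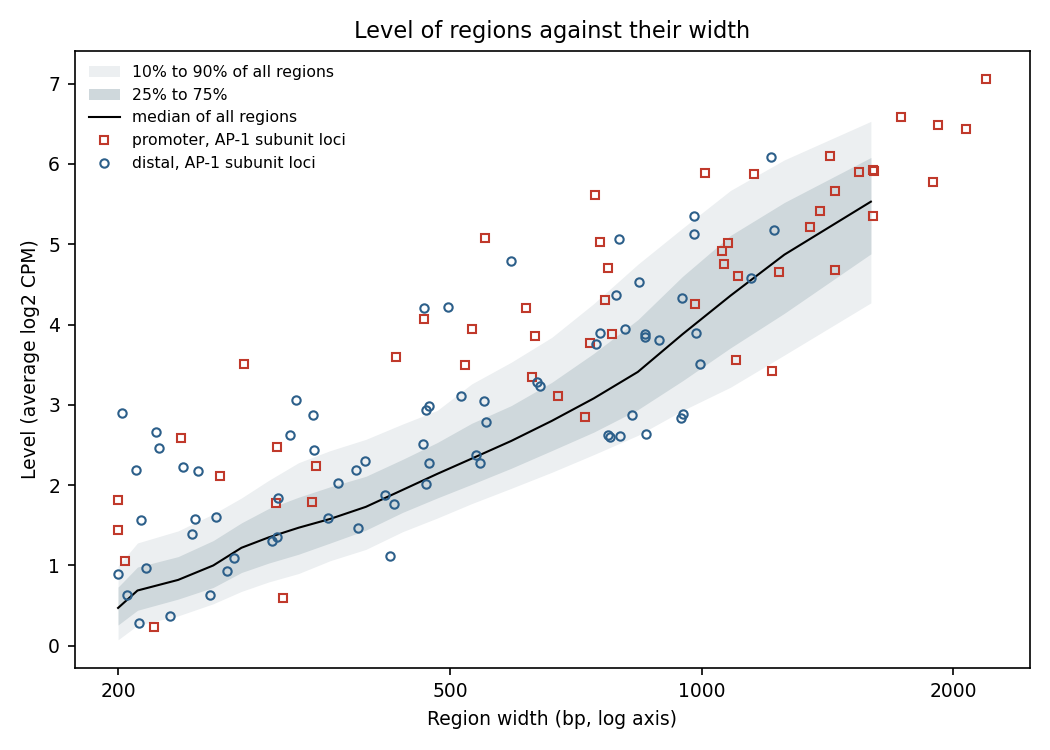
Level (y axis, average log2 CPM) against width (x axis, bp, log scale) of the 124 regions at AP-1 subunit loci, red squares for promoter and blue circles for distal regions, over the median (line) and the 25 to 75% and 10 to 90% ranges (bands) of all 94963 regions in 20 bins of width. Most symbols, 94 of 124, belong to regions above the median of their width bin.

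A site did not mark the higher regions uniformly. Distal member regions with a site had a median level of 2.83 (n = 20) and those without 2.55 (n = 52), while in the list the medians were 2.49 and 1.72. The list's distal regions with a site were wider, 538 against 376 bp at the median, while both medians were 468 bp for the members. In CPM per kb the distal medians with and without a site were 15.1 and 12.4 for the members, and 10.3 and 8.53 in the list. Among promoter regions the order was the opposite, 3.88 with a site (n = 15) and 4.65 without (n = 37), whereas promoter regions of the list had 4.01 with a site and 3.86 without. The 4 highest start regions illustrate both cases, since those of Fosl2 and Atf3 held a site and those of Jun and Jund did not.

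The window ends did not coincide with a drop. The 20 outermost regions inside the windows had a median level of 3.00 (0.28 to 6.44) and the 20 nearest outside 3.06 (0.51 to 6.20). Of the former 3 held an AP-1 site and of the latter 7, beside 22.1% of all regions in the list. With 20 regions on each side, the difference was not tested.

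Related genes show where the members stand. The 11 other genes of the AP-1 superfamily, Batf2, Jdp2, Atf2, Atf7 and the Maf genes with Nrl, had a region at their start in 10 cases with a median highest level of 5.68; Atf7 (6.44), Atf2 (6.30) and Maf (6.28) led, and Mafg had none. Kinases and factors that act upstream of AP-1 had one in 18 of 20 with a median of 5.87, led by Creb1 (6.60), Map2k7 (6.52) and Mapk7 (6.40), while Map2k1 and Mapk10 had none. Other immediate-early genes had one in 12 of 12, with a median of 5.91, and 12 of 12 exceeded the median of coding genes; Egr1 (7.39), Dusp1 (6.62) and Dusp6 (6.59) led.

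Known AP-1 target genes stood lower. They had a region at their start in 10 of 12, with a median level of 4.12, and 1 of 12, the hyaluronan receptor Cd44 (5.52), exceeded the coding median, followed by the chemokine Ccl2 (4.78) and the protease inhibitor Timp1 (4.70). The matrix metalloproteinases Mmp3 and Mmp10 had no region in their windows. At their starts 5 of the 12 targets held an AP-1 site, against 3 of the 10 subunit genes, 3 of 11 superfamily genes, 3 of 20 upstream genes and 1 of 12 immediate-early genes, beside 12.2% of all coding genes. Since the list was made of known AP-1 targets, its count is not independent of that choice. The share of distal regions with a site was 25.9% at the targets, 27.6% at the superfamily, 33.6% at the upstream genes and 32.0% at the immediate-early genes, beside 27.8% at the subunit genes and 22.4% over the windows of all coding genes. The lists are short and their regions few, and no difference between them was tested.

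**Figure D5:**
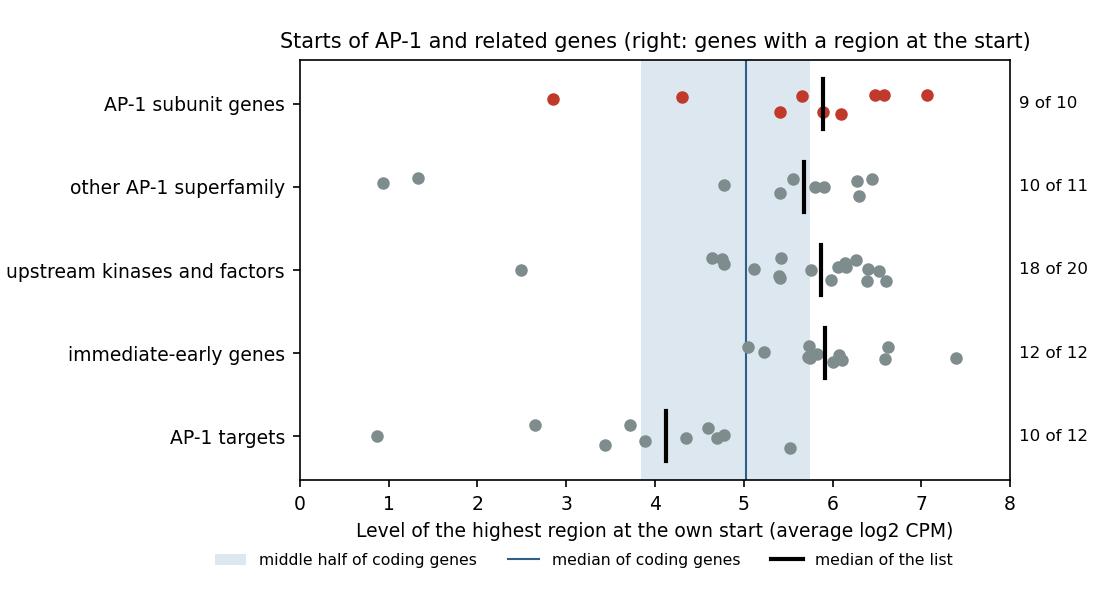
Level of the highest region at each gene's own start (x axis, average log2 CPM) for the AP-1 subunit genes (red) and 4 lists of related genes (grey, y axis); each point is a gene, with vertical scatter for visibility only, and black bars are list medians. The median of the subunit genes, 5.89, is near those of upstream and immediate-early genes, 5.87 and 5.91, and the target genes, 4.12, lie below the coding median of 5.03.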

How the data were processed

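ATAC-seq libraries of 11 MPC2 cultures were processed by the authors: reads were aligned to mm10 with Bowtie2, duplicates removed with Picard 2.17.8, peaks called with MACS2 2.2.7.1 and merged over samples, blacklisted regions removed, cuts counted with pyDNase, and counts normalised by TMM in edgeR 3.24.3. Whether cut positions were corrected for the Tn5 offset is not given in the sources used here. Merging makes widths depend on how many libraries contributed. The deposited list has coordinates (read as 0-based starts, printed 1-based) and, without a header, 1 value per region, which was read as average log2 CPM because it is below 0 in 460 regions and, as a power of 2, sums to 1012761 over the list. No value per sample was given, so no test was made.

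The members and gene lists were chosen with earlier results of these data known. All 10 members are named; coordinates in the report are of regions at a member's start, the highest of a locus or with an AP-1 site, though not of all of these, and those in the closing observations were chosen after their values were seen. Related genes are the 3 highest of each list and those without a region at their start. Motifs were searched in GRCm38, with promoters from RefSeq (9 of 10 members matched, Fosl1 not). Distances are from region midpoints to gene starts. The search recovered 400 of 400 AP-1 sites implanted in 2000 simulated sequences. Alternatives were other windows, widths, motif forms and promoter limits; those for the share of promoter regions with a site were added after seeing the data. Python 3.11.15, pandas 2.3.3, pysam 0.24.0 and statsmodels 0.14.6 were used.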

Additional observations from a re-analysis of the deposited data

How the results depend on the processing

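Of 29 alternative values, 2 of them added after seeing the data, 21 stayed within the limits set (1.5 times for counts, the main interval for shares, and for the median level its own interval) and 8 moved. With windows from 20 kb upstream to the gene end, the count of regions fell to 47, the share with an AP-1 site was 38.3% and the median level 4.07. With regions at least 500 bp wide, 70 remained with a median level of 4.32, and the distal share with a site, 28.1%, was then below the list's 33.5% instead of above it. Keeping regions whose nearest coding start is a member left 69. In the central 200 bp, the share with a site was 15.3% over all regions and also 15.3% over distal regions, against 12.1% and 13.8% of the list. No replicate could be left out, and depth per culture was unknown. No paired analysis was possible because the pooled values cannot be split by sample.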

Other observations

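Between the windows of Fos and Batf, where the Batf start lies 209 kb past the Fos gene end on chromosome 12, another AP-1 superfamily gene, Jdp2, was open. Jdp2 encodes a Jun-binding repressor. The 139 kb between the windows held 14 regions, of which 4 held an AP-1 site, beside a share of 22.1% in the whole list. The windows of Fos and Batf held 0 in 12 and 0 in 6 regions. The regions at the Jdp2 starts, chr12:85598681-85599939 and chr12:85601600-85603267, had levels of 5.32 and 5.80, and the latter held a site. An intergenic region at chr12:85569719-85571708, 1990 bp wide with a level of 4.94, held 3 sites. These regions were looked at after the values of the Fos and Batf windows had been seen, and the difference was not tested.

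In the window of Fosb, a region at chr7:19338139-19338914 (level 2.60) in an intron of D830036C21Rik, named after its values were seen, held the CRE and the TGACATCA variant 672 bp apart on opposite strands in nearly the same surroundings. Read in the same orientation, 27 of 28 bases matched, and the difference was G15A, counted from the 5′ end of the sequence with the CRE. With 20 flanking bases 47 of 48 matched, with 50 it was 94 of 108, and with 100 it was 157 of 208, so that the region holds an inverted copy of this stretch in the reference genome.
Fosb CRE (chr7:19338861-19338888, minus strand): tggtgtaggaTGACGTCAcgtctggctg
Fosb variant (chr7:19338189-19338216, plus strand): tggtgtaggaTGACATCAcgtctggctg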
